A study of Mus musculus with 156 samples.

Results

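The response examined here is a contrast designed to show the effect of putting the long noncoding RNA Firre back into Firre knockout (KO) mouse embryonic stem cells for 96 h. It was taken as the change from 0 min to 96 h in a KO line with a doxycycline-inducible Firre transgene, minus the same change in the KO control line. It rests on 12 of the 156 libraries of the series, in 4 groups of 3. The first group is the KO transgene line after 96 h (5760 min) in doxycycline, the second the same line at 0 min, the third the KO control line after 96 h in doxycycline, and the fourth the KO control line at 0 min. The Firre deletion is thus shared by all 4 groups, and doxycycline by both 96 h groups. The medium of every line held serum and LIF with PD0325901 (against MEK) and CHIR99021 (against GSK3), on gelatin, and doxycycline was given at 1 ng per microlitre on the day after seeding. The study is a time course of such lines in KO and wild-type (WT) backgrounds, with 60 libraries in its long course, and the WT lines at 96 h serve below as a comparison. The labels give 1 line per genotype and do not give the promoter of the transgene, its site, its sequence or whether a line is 1 clone. What a replicate is was not given either, so p-values measure the spread between these samples, which may be technical.

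Firre is transcribed from the X chromosome and stays largely in the nucleus. It is known for a repeated RNA domain that binds the nuclear matrix protein HNRNPU, for CTCF sites along its gene, and for contacts between its locus and other chromosomes. Knockout cells remain viable, and an inducible transgene in them supplies the RNA apart from the deleted locus. The repeats are shown because they are the known functional sequence of this RNA. The gene Firre (ENSMUSG00000085396.7) spans 50555744 to 50635321 on the minus strand of chromosome X in mm10. Its longest GENCODE M21 transcript, Firre-206, has 5555 nucleotides and holds 10 copies of a repeat of about 150 nucleotides. A core of 24 nucleotides, in capitals below, is the same in all 10 copies, and 5 of the 10 annotated transcripts hold it. The copy taken as the query, the most diverged copy (93.33% identity) and the last copy (98% identity) read, 5′ to 3′:
Firre-206 copy 5, bases 1256 to 1405: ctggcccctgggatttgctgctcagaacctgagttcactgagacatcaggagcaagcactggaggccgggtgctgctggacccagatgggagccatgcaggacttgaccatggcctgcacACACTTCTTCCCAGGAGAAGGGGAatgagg
Firre-206 copy 2, bases 458 to 598: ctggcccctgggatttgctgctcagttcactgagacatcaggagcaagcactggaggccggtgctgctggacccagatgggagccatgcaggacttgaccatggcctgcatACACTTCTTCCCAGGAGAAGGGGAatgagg
Firre-206 copy 10, bases 3715 to 3864: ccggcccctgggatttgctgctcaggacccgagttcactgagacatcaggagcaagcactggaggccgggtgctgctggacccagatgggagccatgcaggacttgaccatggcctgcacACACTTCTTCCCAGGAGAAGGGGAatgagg
Which of these copies the transgene carries is not given in the sources used here.

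RNA abundance was measured by poly(A) RNA-seq. The 12 libraries held 29824797 to 42651558 estimated counts each, with 3.72 to 4.70% from mitochondrially encoded genes. Libraries of a group correlated at 0.998 or more across genes, and none stood apart. The embryonic stem cell markers Pou5f1, Sox2, Nanog, Zfp42, Esrrb and Sall4 summed to 2075 to 2149 TPM in the KO transgene line at 96 h and 2148 to 2198 TPM at 0 min. They summed to 2176 to 2232 TPM in the KO control at 96 h and 2173 to 2183 TPM at 0 min. Marker sums of 5 other cell types stayed below 7 TPM in these groups. In bulk samples fewer cells of a type and less RNA per cell cannot be told apart.

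Firre RNA returned in the KO transgene line and stayed near absent in its control. At 96 h it stood at 37.3, 39.9 and 39.9 TPM in the KO transgene line, against 0.588, 1.03 and 1.07 TPM in that line at 0 min. The KO control had 0.613, 0.666 and 0.447 TPM at 96 h and 0.515, 0.235 and 0.420 TPM at 0 min. The induced libraries did not overlap with any other KO group. The response was a log2 fold change of 4.91 ± 0.42 (SE; edgeR adjusted p = 1.49e-15), made of a rise of 5.67 in the transgene line less one of 0.76 in the control. Before doxycycline the KO transgene line already held more Firre counts than the KO control, by 1.35 on the log2 scale (edgeR adjusted p = 0.000681). The WT control at 96 h held 21.3, 22.3 and 22.9 TPM, so that by TPM the rescued level lay above the WT control. By counts the order was the reverse, with 38.8 ± 0.845 CPM in the rescued line and 61.1 ± 1.86 CPM in the WT control (SD, n = 3 each). TPM divides by the effective length of the transcripts that Salmon assigned and CPM does not. Over the course the KO transgene line stood at 49.4 ± 1.87 TPM at 12 h, 28.7 ± 1.66 at 24 h, 26.5 ± 2.91 at 48 h and 39.0 ± 1.46 at 96 h (SD, n = 3).

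**Figure D1:**
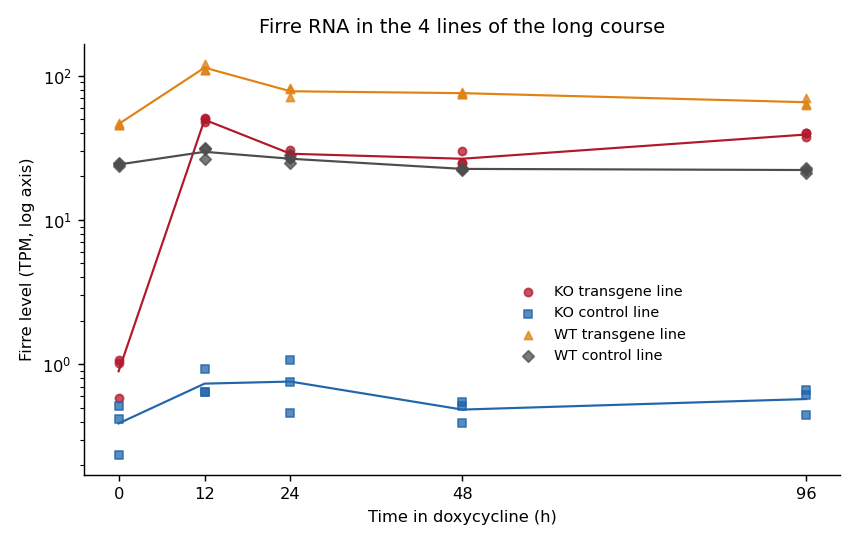
Firre level in TPM (log axis) against hours in doxycycline for the 4 lines of the long course; each point is 1 library and lines join the means of 3. The KO transgene line climbs to 49.4 TPM at 12 h and stands at 39.0 TPM at 96 h, while the KO control stays between 0.235 and 1.07 TPM.

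Of 17565 genes tested, 940 (5.35%) were called for the response at 96 h, 483 higher (2.75%) and 457 lower (2.60%) (edgeR quasi-likelihood test, Benjamini-Hochberg adjusted p under 0.05). Most responses were small: 206 genes (1.17%) reached 0.58 in size on the log2 scale and 86 (0.490%) reached 1. At an unadjusted p under 0.05 the count was 2835 (16.1%). The control itself changed far more, and so did the transgene line. Between 96 h and 0 min 6799 genes (38.7%) were called in the KO transgene line, with 19.8% of all genes up and 18.9% down, and 7026 (40.0%) in the KO control, 20.5% higher and 19.5% lower. Both line changes share their libraries with the response. Among the 483 higher calls, 273 rose in the transgene line, and 137 fell in the control with no call in the transgene line. A further 72 fell in both lines, less in the transgene line. Among the 457 lower calls, 193 fell in the transgene line, 147 rose in the control with no call in the transgene line, and 115 rose in both, less in the transgene line. The lines also differed before doxycycline in 622 genes (3.54%), 1.83% higher and 1.71% lower in the transgene line. At 0 min 64 of the higher calls (13.3%) started lower in the transgene line and 7 (1.45%) started higher. Of the lower calls 73 (16%) started higher there and 17 (3.72%) started lower. The response subtracts this same 0 min difference, so spread between the 0 min libraries alone favours such opposite starts. Whether such a gene answered to Firre, moved with the line's starting level or reflects that spread cannot be told apart here. For the other calls too, 1 transgene line is set against 1 control line. An effect of Firre and a different drift of the 2 lines over 96 h cannot be told apart. Without the libraries of replicate 1, 2 or 3 the test called 487, 522 and 449 genes, and without any 1 of the 12 libraries 742 to 872.

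The genes that rose most include signalling proteins, enzymes and surface receptors, several of them below 1 TPM in both lines at 0 min. Rapgef4, the cAMP-activated exchange factor for Rap GTPases also called EPAC2, reached 3.82, 3.87 and 3.54 TPM in the KO transgene line at 96 h, against 0.226, 0.0842 and 0.139 TPM at 0 min. In the KO control it had 0.198, 0.587 and 0.739 TPM at 96 h and 0.0843, 0.201 and 0.269 TPM at 0 min. The induced libraries lay well above all others, and the response was 3.57 ± 0.41 (SE; edgeR adjusted p = 3.4e-10). Shf, an SH2-domain adaptor, had the highest TPM of the leading genes in the rescued line, and its response had the smallest adjusted p of the genes named here. It stood at 49.2, 49.6 and 47.2 TPM in the KO transgene line at 96 h, against 12.9, 12.3 and 10.8 TPM at 0 min. It fell in the KO control, with 10.1, 9.49 and 10.8 TPM at 96 h, against 17.3, 14.2 and 15.3 TPM at 0 min, and the response was 2.58 ± 0.10 (edgeR adjusted p = 1.43e-30). Duox1, an oxidase that forms hydrogen peroxide at epithelial surfaces, had 1.57, 1.89 and 1.99 TPM in the KO transgene line at 96 h and 0.11, 0.0716 and 0.0874 TPM at 0 min. Its levels in the KO control were 0.143, 0.247 and 0.119 TPM at 96 h and 0.073, 0.106 and 0.0488 TPM at 0 min. Again only the induced libraries stood out (3.20 ± 0.38, edgeR adjusted p = 1.62e-09).

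Adgrg1, an adhesion G protein-coupled receptor also called GPR56, had 7.80, 5.56 and 6.83 TPM in the KO transgene line at 96 h and 0.666, 0.488 and 0.876 TPM at 0 min. The KO control had 1.44, 1.2 and 0.794 TPM at 96 h and 0.700, 0.472 and 0.384 TPM at 0 min. The receptor thus rose in both lines and more with the transgene (2.41 ± 0.20, edgeR adjusted p = 1.37e-15). Apod, a secreted lipocalin that carries lipids, had 31.6, 35.1 and 34.2 TPM in the KO transgene line at 96 h, against 3.95, 4.61 and 4.59 TPM at 0 min. Apod had 6.27, 6.27 and 6.44 TPM in the KO control at 96 h and 3.05, 4.31 and 3.27 TPM at 0 min, which made a response of 2.33 ± 0.17 (edgeR adjusted p = 5.71e-19). Cdh3, which encodes P-cadherin, rose to 10.3, 10.4 and 10.3 TPM in the KO transgene line, against 6.05, 5.87 and 5.77 TPM at 0 min. It fell to 3.83, 3.48 and 3.61 TPM in the KO control, against 6.54, 6.12 and 5.95 TPM at 0 min. Its response of 1.57 ± 0.08 (edgeR adjusted p = 2.75e-27) joins a rise and a fall of similar size.

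The other leading genes were Gfap, the intermediate filament of astrocytes (2.42 ± 0.36), Bcl2l15, a member of the Bcl-2 family (2.13 ± 0.39), Tfap2a, an AP-2 transcription factor of trophoblast and neural crest (1.57 ± 0.29), Ror1, a receptor for Wnt5a (1.5 ± 0.25), and Epx, eosinophil peroxidase (1.42 ± 0.21). The edgeR adjusted p was lowest for Gfap (5.19e-07) and highest for Tfap2a (7.57e-05). Gfap stood at 1.22, 1.63 and 1.57 TPM in the KO transgene line at 96 h and between 0.181 and 0.566 TPM in the other KO libraries. Tfap2a rose in both lines, to 3.55, 3.38 and 3.54 TPM in the KO transgene line and 0.938, 0.739 and 0.652 TPM in the KO control at 96 h, against 0.235 to 0.549 TPM in both at 0 min. All 12 leading genes rose in the transgene line, and in the control 6 rose, 3 fell and 3 were not called. Each of the 12 kept its call without any 1 library, without any replicate number and under every other setting tried.

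**Figure D2:**
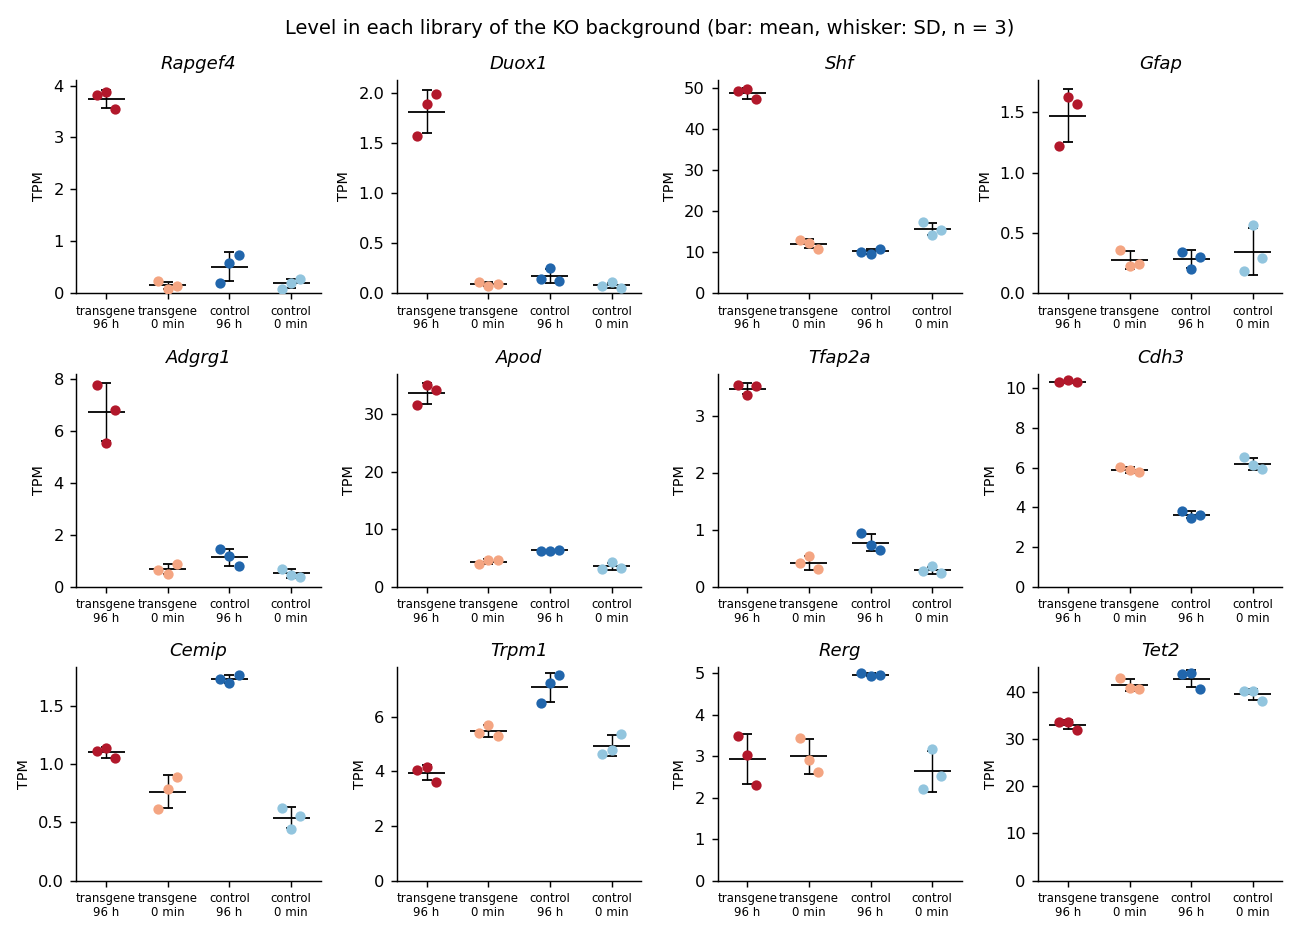
TPM in each of the 12 libraries for 8 leading genes that rose and 4 that were lower (Cemip, Trpm1, Rerg and Tet2), in the KO transgene line at 96 h and 0 min and the KO control at 96 h and 0 min; bars are means and whiskers SD of 3 libraries. The risers stand apart in the first group (Shf at 47.2 to 49.6 TPM), Cdh3 also drops in the control, and Cemip and Rerg stand highest in the control at 96 h.

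Shf and Duox1 lie side by side on chromosome 2 and both rose. Duox1 runs from 122315672 to 122347972 on the plus strand and Shf from 122348892 to 122369162 on the minus strand (mm10), so that their 3′ ends face each other and their promoters lie at the outer ends. The library kit does not mark strand, so reads that run past the end of either gene could be assigned to the other. The 250 bases before the start (for Shf, the first of 2 starts) of each gene in RefSeq (GRCm38.p6) are printed because the genes moved together, with CG dinucleotides in capitals:
Duox1, chr2:122315422-122315671, plus strand: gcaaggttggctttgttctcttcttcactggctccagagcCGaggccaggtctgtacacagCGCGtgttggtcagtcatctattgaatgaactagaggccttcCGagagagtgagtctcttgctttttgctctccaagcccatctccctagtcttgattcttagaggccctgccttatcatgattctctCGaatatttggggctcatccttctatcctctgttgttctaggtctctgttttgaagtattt
Shf, chr2:122369148-122369397, minus strand: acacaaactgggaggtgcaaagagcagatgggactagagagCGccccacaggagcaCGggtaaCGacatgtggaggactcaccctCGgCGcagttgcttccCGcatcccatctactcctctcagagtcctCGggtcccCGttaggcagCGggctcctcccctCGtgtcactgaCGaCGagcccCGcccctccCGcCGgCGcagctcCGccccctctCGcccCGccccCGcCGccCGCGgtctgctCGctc
The windows differ in CG content. That of Duox1 holds 5 CG dinucleotides, near the median of 6 over 32851 RefSeq promoters of this length, while that of Shf holds 24, as many as or more than 89.3% of them. Neither holds the TATA motif TATAAA or the E-box CACGTG, both read on either strand, which occur in 12.4% and 6.02% of these promoters. Of the 24 leading genes 22 had such a sequence. Rapgef4 was also at the CG-rich end with 30, but so was Cemip, among the lowest genes, with 26. Some other risers had few, with 2 in Gfap, 4 in Apod and 0 in Bcl2l15.

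Some called genes that reached 1 in size on the log2 scale were neighbours. Of 83 such genes with a position, 17 lay within 500 kb of another, in 8 groups, and all 17 had a positive response. The share of positive responses among the 83 was not counted, so whether this direction sets neighbours apart cannot be said. The leading genes, capped at 12 each way and filtered by level and symbol, do not give this share. Epx, the last of the 12 risers, stood at 1.42, and Birc7, the last of the 12 lowest, at -0.93. Whether this many lay closer together than other tested genes do was not tested, and members of tandem families such as Rhox and Xlr are neighbours whatever their response. The lincRNA Gm49767 lies next to Apod on chromosome 16, at 0.260, 0.308 and 0.219 TPM in the KO transgene line at 96 h and at most 0.0758 TPM in the other KO libraries (2.86 ± 0.73, edgeR adjusted p = 0.00688). Ptpn22, a lymphoid tyrosine phosphatase, lies next to Bcl2l15 on chromosome 3 (1.28 ± 0.29). Th, the rate-limiting enzyme of dopamine synthesis, lies next to the trophoblast regulator Ascl2 on chromosome 7 (1.45 ± 0.41, which lost its call without any 1 of 3 libraries). The remaining 4 groups were all on the X chromosome. They were Rhox1 with the antisense transcript Gm14549, Apln with Rab33a, Ct55 with 1700013H16Rik, and Xlr4a, Xlr3a and Xlr5c. In all 9 of these X-linked genes the control fell, and in 7 the transgene line was not called. Rhox1, a reproductive homeobox gene, had 3.98, 3.59 and 4.65 TPM in the KO transgene line at 96 h and 4.15, 3.24 and 3.15 TPM at 0 min, against 2.14, 1.64 and 2.13 TPM in the KO control at 96 h and 3.50, 3.88 and 3.82 TPM at 0 min. Xlr genes are near-identical copies whose reads can be split between them, and Gm14549 was counted without strand, so single values of these are uncertain. Apln, Rab33a and Xlr5c lost their calls without any 1 of 9 or 10 libraries, with edgeR adjusted p values up to 0.150, Xlr4a without any 1 of 3 (0.0771) and Ct55 without replicate 3 of the KO transgene line at 96 h (0.0640).

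The genes with the lowest responses mostly rose in the control and not in the transgene line. Of the 12, the control rose in 10, and the transgene line fell in 4, rose in 2 and was not called in 6. Cemip, which acts in the breakdown of hyaluronan, had 1.11, 1.14 and 1.05 TPM in the KO transgene line at 96 h and 0.611, 0.789 and 0.890 TPM at 0 min. It reached 1.73, 1.69 and 1.76 TPM in the KO control at 96 h, against 0.624, 0.441 and 0.553 TPM at 0 min. Both lines rose, the transgene line less and from a higher start, and the response was -1.18 ± 0.15 (edgeR adjusted p = 2.24e-08). Rerg, a Ras-like GTPase induced by estrogen in other tissues, had 3.49, 3.03 and 2.30 TPM in the KO transgene line at 96 h and 3.44, 2.91 and 2.63 TPM at 0 min. The KO control had 5.00, 4.94 and 4.95 TPM at 96 h and 2.21, 3.17 and 2.52 TPM at 0 min, a rise that the transgene line lacked (-0.95 ± 0.14, edgeR adjusted p = 1.56e-06). Trpm1, a cation channel of melanocytes and retinal bipolar cells, did fall in the transgene line. It had 4.07, 4.16 and 3.63 TPM there at 96 h and 5.42, 5.72 and 5.30 TPM at 0 min, against 6.5, 7.25 and 7.52 TPM in the KO control at 96 h and 4.64, 4.80 and 5.38 TPM at 0 min (-1.12 ± 0.11, edgeR adjusted p = 6.99e-13).

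Tgfbr2, the type II TGF-beta receptor (-1.26 ± 0.29), Tnfaip3, the NF-kappa-B inhibitor A20 (-1.11 ± 0.28), and the scaffold gene Ahnak2 (-1.0 ± 0.15) rose in the control by 1.23, 1.01 and 1.59, and Ahnak2 also rose by 0.59 in the transgene line. At 0 min they were already higher in the transgene line, by 0.77, 0.71 and 0.56, as was Cemip by 0.49 and Trpm1 by 0.26 (edgeR adjusted p from 0.000537 to 0.0330). Dmgdh, a mitochondrial enzyme of choline breakdown (-1.08 ± 0.21), and Bdkrb2, the bradykinin B2 receptor (-1.04 ± 0.29), also rose in the control and were not called in the transgene line. Slc38a5, a glutamine transporter gene on the X chromosome (-1.25 ± 0.31), and Vax2os, an opposite-strand transcript of Vax2 (-1.02 ± 0.26), fell in the transgene line by 1.13 and 1.28 and were not called in the control. Without strand, reads of Vax2os and of genes on the other strand cannot be told apart. Birc7, an inhibitor of apoptosis (-0.93 ± 0.22), fell in the transgene line and rose in the control, and Gpnmb, a membrane glycoprotein of macrophages and melanocytes (-0.96 ± 0.28), rose in the control. These 9 genes stood at or below 2.60 TPM in every KO library. Slc38a5 lost its call without replicate 2 of the KO transgene line at 96 h (edgeR adjusted p = 0.0548), Vax2os without replicate 3 of that group (0.0581) and Tnfaip3 without replicate 2 of the KO transgene line at 0 min (0.0541). Bdkrb2 lost it without any 1 of 4 libraries and Gpnmb without any 1 of 5, with edgeR adjusted p values up to 0.129 and 0.177. Over all settings Bdkrb2 ran from -1.56 to -0.65 and Gpnmb from -1.29 to -0.51. The other 7 of the 12 kept their calls without any 1 library. Without a replicate number 7 of the 12 lost theirs, those 5 as well as Tgfbr2 without replicate 3 (edgeR adjusted p = 0.0947) and Birc7 without replicate 1 (0.158).

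**Figure D3:**
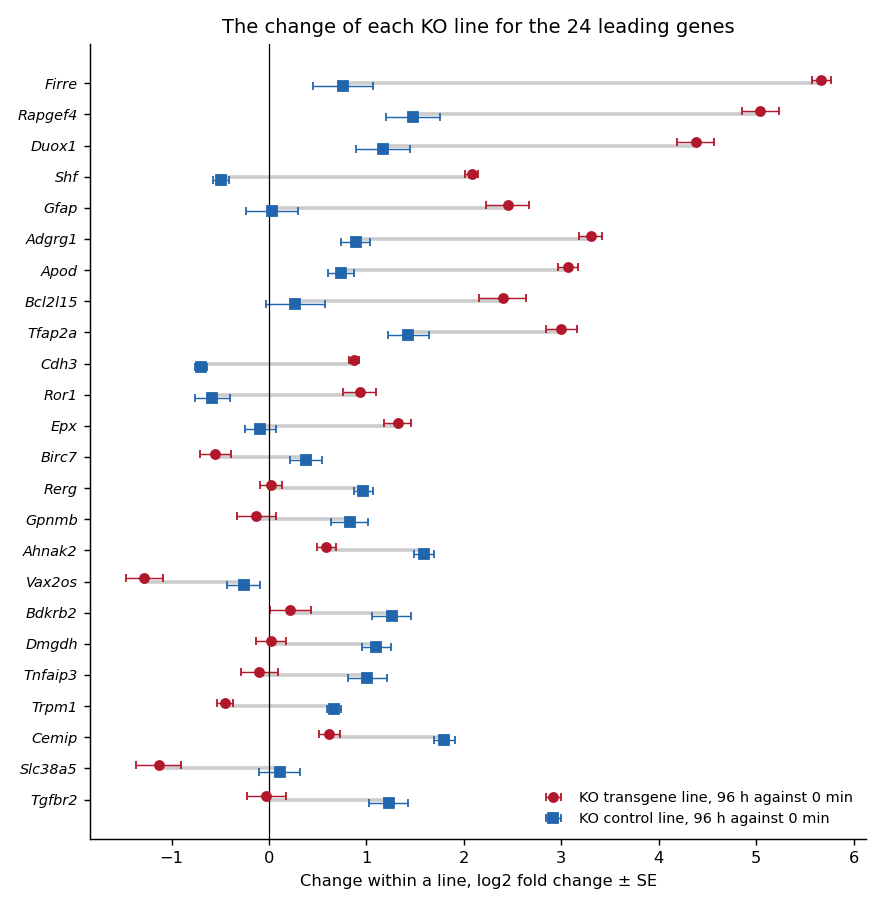
Log2 fold change ± SE from 0 min to 96 h in the KO transgene line (red circles) and the KO control line (blue squares) for the 24 leading genes; the grey bar between them is the response. For Rapgef4 and Duox1 the red point lies at 5.04 and 4.38, whereas for Rerg, Dmgdh and Tgfbr2 it lies near 0 and the blue point near 1.

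Levels in the WT control at 96 h place these responses beside the level that cells with an intact Firre locus have, with no test between the backgrounds. Firre averaged 22.1 TPM in the WT control, and of the other 11 leading risers all but Tfap2a and Bcl2l15 had a lower mean there than in the KO control. Shf had 7.38, 9.64 and 6.67 TPM in the WT control, Rapgef4 0.0828, 0.395 and 0.047 TPM, Duox1 0.0672, 0.0930 and 0.0668 TPM and Cdh3 2.35, 1.99 and 2.12 TPM. For these genes the rescued level thus lay above both controls. Trpm1 had 12.3, 12.1 and 13.1 TPM in the WT control, so that its fall in the transgene line led further below the WT level. Cemip, at 1.86, 1.96 and 1.83 TPM, and Rerg, at 6.96, 6.55 and 6.36 TPM, were likewise above the rescued level in the WT control.

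Of 402 genes in 30 lists of pathways and cell types, 73 responded, 49 higher and 24 lower, beside 5.35% of all genes. The lists were chosen with earlier results of these data known, and some hold leading genes such as Rapgef4, Cdh3 and Adgrg1. These counts thus cannot be set against the share of all genes as if the lists were independent of the calls. Naive pluripotency genes, which mark the ground state of these cells, had 1 of 16 higher and 5 lower, with a median log2 fold change of -0.10, beside -0.007 over all genes. Tet2, a 5-methylcytosine oxidase, fell to 33.7, 33.5 and 32.0 TPM in the KO transgene line at 96 h, against 42.9, 40.9 and 40.6 TPM at 0 min. The KO control had 43.7, 43.9 and 40.7 TPM at 96 h and 40.1, 40.2 and 38.1 TPM at 0 min, so the response of -0.37 ± 0.04 (edgeR adjusted p = 8.04e-10) was a fall against a small rise. Tbx3 (-0.35 ± 0.05), Klf4 (-0.25), Klf5 (-0.24) and Nr0b1 (-0.24), all transcription factors of the naive network, were the others. Tbx3 and Klf4 rose in both lines, less in the transgene line, which held more of them at 0 min by 0.28 and 0.19. Dppa3, a factor that protects methylation in the early embryo, went the other way. It had 11.7, 10.7 and 11.3 TPM in the KO transgene line at 96 h and 38.5, 42.2 and 41.4 TPM at 0 min, against 8.56, 9.21 and 10.3 TPM in the KO control at 96 h and 55.8, 59.2 and 57.7 TPM at 0 min. It fell in both lines, less in the transgene line (0.79 ± 0.13, edgeR adjusted p = 3.78e-06). Nr0b1 lost its call without KO transgene replicate 1 at 0 min or replicate 3 at 96 h (edgeR adjusted p up to 0.0750).

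Among core pluripotency genes 0 of 12 were higher and 2 lower, with a median of -0.10. They were Lin28a, an RNA-binding protein that blocks let-7 maturation, and the Nodal co-receptor gene Tdgf1. Lin28a stood at 85.9, 86.9 and 88.8 TPM in the KO transgene line at 96 h, and at 101 to 114 TPM in all other KO libraries (-0.35 ± 0.04, edgeR adjusted p = 2.79e-09). Tdgf1 stood at 670, 665 and 665 TPM in the KO transgene line at 96 h, against 752, 759 and 767 TPM in the KO control (-0.22 ± 0.05, edgeR adjusted p = 0.000746). The central factors Pou5f1, Sox2 and Nanog had log2 fold changes of -0.13, -0.09 and 0.06 and were not called. Formative and primed epiblast genes, which mark the exit from the naive state, had 4 of 12 higher and 0 lower, with a median of 0.30. The de novo methyltransferase gene Dnmt3a fell in both lines, to 30.7, 31.0 and 30.0 TPM in the KO transgene line and 24.5, 25.5 and 24.8 TPM in the KO control at 96 h (0.41 ± 0.05, edgeR adjusted p = 7.24e-10). Dnmt3b had 45.4, 44.3 and 44.1 TPM in the KO transgene line and 38.1, 36.0 and 36.0 TPM in the KO control at 96 h (0.35 ± 0.05, edgeR adjusted p = 8.49e-08), and Zic5 (0.30) and Lef1 (0.48) completed the group. Lef1 lost its call without any 1 of 6 libraries (edgeR adjusted p up to 0.135). Of 14 genes of DNA methylation, 3 were higher (Dnmt3a, Dnmt3b and the glycosylase gene Tdg, 0.19) and 2 lower (Tet2 and Zfp57, -0.22, which guards imprints), with a median of 0.03.

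Trophoblast genes had 5 of 15 higher and 0 lower, with a median of 0.12. Ascl2, a regulator of the ectoplacental lineage, reached 10.5, 11 and 12 TPM in the KO transgene line at 96 h, against 3.77, 3.96 and 4.67 TPM at 0 min. The KO control stood at 4.98, 4.89 and 4.88 TPM at 96 h and 3.84, 4.97 and 5.16 TPM at 0 min (1.24 ± 0.14, edgeR adjusted p = 1.8e-10). Tfap2a, Tfap2c (0.37), the keratin gene Krt18 (0.53) and the X-linked homeobox gene Esx1 (0.61) were the others. Esx1 lost its call without replicate 1 of the KO control or replicate 2 of the KO transgene line at 0 min (edgeR adjusted p up to 0.0634). The defining trophoblast markers Cdx2, Elf5, Gata3 and Eomes summed to 4.08 to 4.70 TPM in the KO transgene line and 4.50 to 4.81 TPM in the KO control at 96 h, and to 2.67 to 3.59 TPM in both at 0 min. None of these 4 was called, at log2 fold changes of 0.11 for Cdx2, -0.79 for Elf5, -0.15 for Gata3 and -0.36 for Eomes.

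Primitive endoderm genes had 3 of 13 higher (Lrp2, Col4a1 and Dab2) and 1 lower (Sparc), with a median of -0.01. Lrp2, the endocytic receptor megalin, had 6.52, 6.54 and 6.59 TPM in the KO transgene line and 4.46, 4.30 and 4.07 TPM in the KO control at 96 h, above 3.10 to 3.50 TPM in both at 0 min (0.53 ± 0.06, edgeR adjusted p = 1.97e-09). The markers Gata4, Gata6, Sox17 and Sox7 summed to 1.84 to 2.17 TPM in the KO transgene line and 2.00 to 2.30 TPM in the KO control at 96 h. Mesendoderm genes had 2 of 9 higher, the activin inhibitor gene Fst (0.41 ± 0.10) and the VEGF receptor gene Kdr (1.48 ± 0.40, at most 0.356 TPM), and 0 lower. Neuroectoderm genes had 2 of 8 higher (Gfap, and the filament gene Nes at 0.27) and 1 lower (Sox1, -0.69), which was higher in the transgene line at 0 min by 0.53. Their markers Sox1, Pax6 and Nes summed to 5.48 to 6.90 TPM in the KO transgene line and 4.89 to 5.56 TPM in the KO control at 96 h. Of 7 fibroblast genes the fibrillar collagen gene Col5a1 was higher, at 3.28, 3.07 and 3.02 TPM in the KO transgene line at 96 h and 1.39 to 1.93 TPM in the other KO libraries (0.98 ± 0.09, edgeR adjusted p = 3.42e-13). The feeder markers summed to 1.48 to 1.94 TPM in the KO transgene line and 1.16 to 2.11 TPM in the KO control at 96 h, with Lum at 0 in the KO transgene line and Col3a1 and Postn at 0 in the KO control. The mesendoderm markers T, Mixl1 and Gsc summed to 2.45 to 3.23 TPM in the KO transgene line and 3.24 to 3.48 TPM in the KO control. The part of such cells in these responses was not tested. Dab2 lost its call without any 1 of 9 libraries, Col4a1 of 3, Kdr of 2, Nes without replicate 3 of the KO transgene line at 96 h and Sox1 without replicate 3 of the KO control at 0 min (edgeR adjusted p up to 0.163).

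Imprinted genes, expressed from 1 parental allele and often growth regulators, had 9 of 29 higher and 1 lower, with a median of 0.18. Peg3, a zinc finger gene, had 33.3, 34.1 and 34.8 TPM in the KO transgene line at 96 h and 27.4, 27.1 and 26.3 TPM at 0 min. The KO control had 25.3, 24.2 and 24.8 TPM at 96 h and 35.4, 34.5 and 32.8 TPM at 0 min, so the order of the lines turned round (0.81 ± 0.04, edgeR adjusted p = 1.62e-25). At 0 min it had been lower in the transgene line by 0.34, and 7 of the 29 genes were lower there at 0 min. Peg10, a retrotransposon-derived gene of the placenta, rose in both lines, to 24.4, 28.4 and 29.5 TPM in the KO transgene line and 15.2, 14.3 and 16.4 TPM in the KO control at 96 h, against 3.68 to 4.09 TPM in both at 0 min (0.76 ± 0.09, edgeR adjusted p = 5.05e-08). Plagl1, a growth-restraining zinc finger gene, had 58.9, 59.8 and 65.2 TPM in the KO transgene line and 50.3, 45.7 and 44.0 TPM in the KO control at 96 h (0.46 ± 0.05, edgeR adjusted p = 1.21e-09). The others higher were Usp29 (0.65), Cdkn1c (0.54), Nnat (0.48), Mest (0.29), Igf2r (0.18) and H19 (0.84), and Zdbf2 was lower (-0.27). H19 lost its call without any 1 of 10 libraries, and Cdkn1c, Nnat and Igf2r without any 1 of 4 (edgeR adjusted p up to 0.178).

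Germline genes had 3 of 15 higher and 0 lower, with a median of 0.26, and all 3 fell in the control. Rhox5, an X-linked homeobox gene of the reproductive cluster, had 41.8, 46.1 and 49.8 TPM in the KO transgene line at 96 h and 48.4, 51.6 and 50.7 TPM at 0 min. It dropped to 17.4, 18.6 and 15.9 TPM in the KO control at 96 h, against 46.2, 46.3 and 45.5 TPM at 0 min (1.27 ± 0.09, edgeR adjusted p = 1.13e-18). Dazl, an RNA-binding protein of germ cells, had 54.5, 56.0 and 59.0 TPM in the KO transgene line and 36.1, 40.1 and 43.1 TPM in the KO control at 96 h, below 92.1 to 106 TPM in both at 0 min (0.73 ± 0.06, edgeR adjusted p = 9.18e-15). Hormad1, a meiotic chromosome axis gene (0.37), lost its call without any 1 of 4 libraries (edgeR adjusted p up to 0.150). The 12 genes of the 2-cell-like state, many of them near-identical copies, gave 0 calls in edgeR and in DESeq2, and 1 had an unadjusted p under 0.05.

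Genes of adhesion had 3 of 17 higher (Cdh3, Adgrg1 and the tight junction gene Tjp1, 0.19) and 0 lower, with a median of 0.01. Exchange factors for Rap and Ras had 2 of 12 higher (Rapgef4 and Rasgrp2, 0.49 ± 0.09) and 1 lower (Rapgef3, -0.43 ± 0.14), with a median of 0.01. Rapgef3, which encodes the other cAMP-activated Rap exchange factor EPAC1, lost its call without any 1 of 10 libraries (edgeR adjusted p up to 0.221), without the filter on low counts, with other size factors and with DESeq2. Id genes and BMP targets had 3 of 11 higher and 0 lower. Id2, an inhibitor of basic helix-loop-helix factors, reached 49.1, 54.3 and 58.6 TPM in the KO transgene line and 30.5, 25.8 and 27.6 TPM in the KO control at 96 h, against 15.7 to 17.5 TPM in both at 0 min (1.03 ± 0.10, edgeR adjusted p = 1.24e-13). Dusp9 (0.39), an X-linked phosphatase of ERK, and Id1 (0.39) were the others, and Id1 lost its call without any 1 of 8 libraries (edgeR adjusted p up to 0.240). In the FGF/ERK list 0 of 13 were higher and 1 lower, the feedback inhibitor gene Spry2 (-0.30 ± 0.06), and among immediate early genes 0 of 12 were higher and 2 lower, Myc (-0.46 ± 0.11) and Nr4a1 (-0.28). Wnt targets had 1 of 13 higher (Lef1) and 1 lower (Cdx1, -0.36). Nr4a1 and Cdx1 lost their calls without any 1 of 8 and 5 libraries (edgeR adjusted p up to 0.245), and Tjp1 without replicate 2 of the KO control or replicate 3 of the KO transgene line at 0 min (0.0514).

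The called stress, metabolic and cell-cycle genes had changes of at most 0.26 in size. In the integrated stress response 0 of 20 were higher and 3 lower, led by asparagine synthetase, Asns, at 592, 592 and 641 TPM in the KO transgene line and 618, 681 and 646 TPM in the KO control at 96 h (-0.26 ± 0.04, edgeR adjusted p = 5.8e-07). Cth (-0.18), of cysteine synthesis, and Sesn2 (-0.19) were the others, and Sesn2 was also the only call among 17 p53 targets. All 3 rose in both lines, less in the transgene line. Heat shock genes had 3 of 12 higher, Hsph1 (0.19), Hspd1 (0.17) and Hsp90ab1 (0.14). The glucose transporter gene Slc2a1 (0.20) was the only edgeR call among 20 genes of glycolysis and hypoxia, and Mcm4 (0.17) among 16 of the G1/S phase, while DESeq2 called 3 genes in each of these lists. Of 16 G2/M genes Cenpa (0.18) and Aurka (0.15) were higher. Cholesterol synthesis genes (18) and mitochondrially encoded genes (13) gave 0 calls in edgeR and DESeq2, with 3 and 1 at an unadjusted p under 0.05. Sesn2 and Hspd1 lost their calls without any 1 of 4 libraries, Hsp90ab1 of 3 and Slc2a1 of 2 (edgeR adjusted p up to 0.139). Aurka lost its call without replicate 1, 2 or 3 (edgeR adjusted p up to 0.195) and without the filter on low counts (0.0817). Cenpa, Mcm4, Hsph1 and Cth each lost theirs without at least 1 replicate number.

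Genes tied to Firre by position, reported contact or binding formed 3 lists. Of the neighbours of the Firre locus on the X chromosome 3 of 13 were higher, Gpc3 (0.31 ± 0.07), Mbnl3 (0.64 ± 0.19) and Hs6st2 (1.22 ± 0.38), and 1 lower, Gpc4 (-0.24 ± 0.06), with a median of 0.02, beside 5.35% of all genes called in either direction, and DESeq2 called 3 of the 13. Mbnl3 and Hs6st2 lost their calls without any 1 of 6 and 8 libraries (edgeR adjusted p up to 0.164). Gpc3, a glypican that holds growth factors at the cell surface, stood at 15.8, 15.6 and 15.7 TPM in the KO transgene line and 12.9, 12.8 and 12.3 TPM in the KO control at 96 h, below 20.3 to 21.3 TPM in both at 0 min. The 5 genes reported to contact the Firre locus from other chromosomes, Slc25a12, Ypel4, Eef1a1, Atf4 and Ppp1r10, lay between -0.19 and 0.08. None was called by edgeR or DESeq2, and 0 had an unadjusted p under 0.05. Of 20 nuclear matrix and chromatin partners only Eed was called, a subunit of Polycomb repressive complex 2, at 298, 292 and 301 TPM in the KO transgene line and 332, 332 and 327 TPM in the KO control at 96 h (-0.21 ± 0.04, edgeR adjusted p = 9.12e-05). Hnrnpu and Ctcf had log2 fold changes of 0.05 and 0.07 and were not called. Y-linked genes had 0 of 7 higher and 3 lower, Eif2s3y (-0.41), Uty (-0.40) and Ddx3y (-0.34). In these 3 the transgene line stood higher at 0 min by 1.02 to 1.11, and the control rose by 0.84 to 1.25 over 96 h. Ddx3y had 37.2, 40.7 and 41.1 TPM in the KO transgene line at 96 h and 22.9, 23.3 and 21.5 TPM at 0 min, against 22.3, 25.7 and 24.3 TPM in the KO control at 96 h and 10.4, 10.1 and 10.2 TPM at 0 min.

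**Figure D4:**
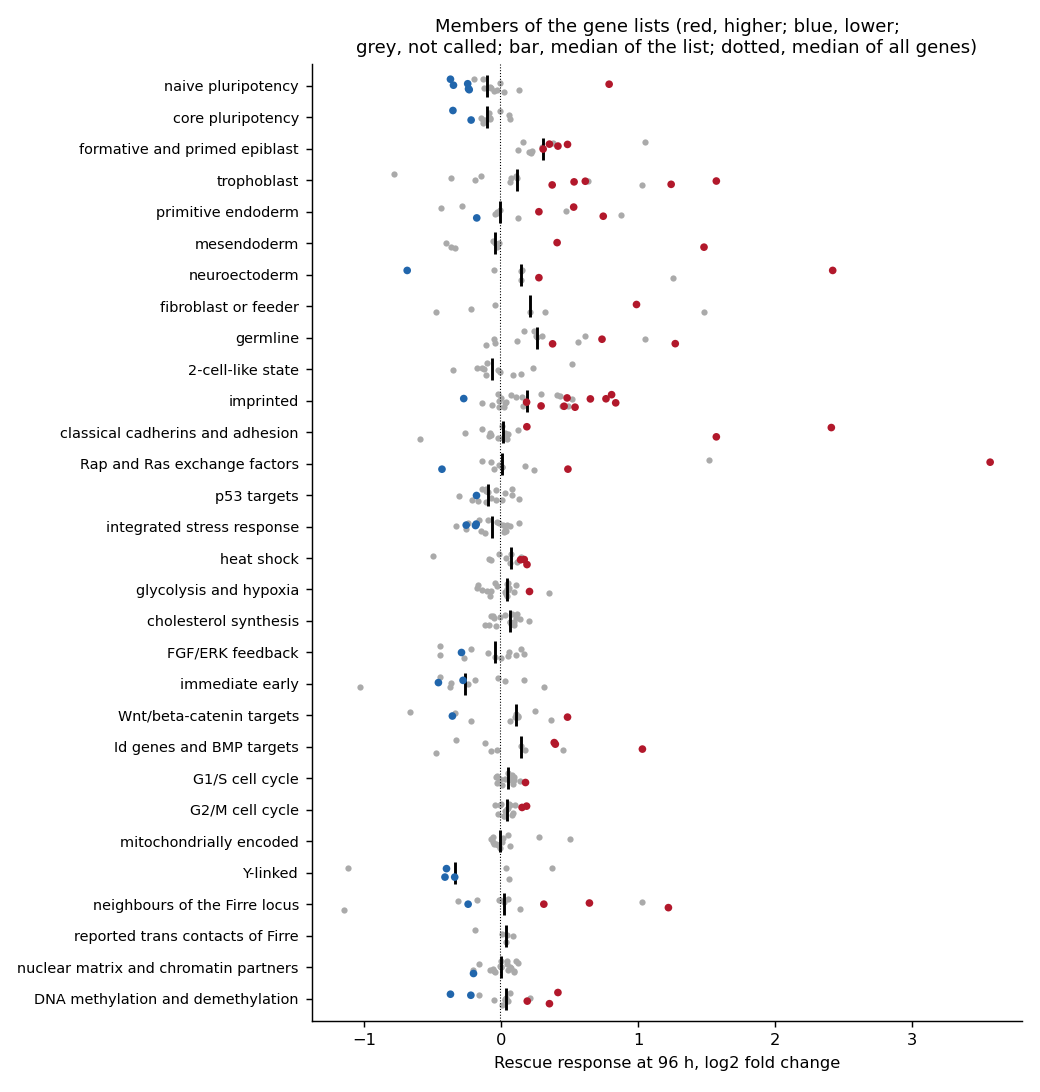
Log2 fold change of the response at 96 h for each tested member of the 30 gene lists; red points were called higher, blue points called lower and grey points were not called, black bars are list medians and the dotted line is the median of all genes (-0.007). Calls of the germline, trophoblast and formative lists lie to the right, 5 of the 6 naive pluripotency calls lie to the left, and Rapgef4 (3.57) lies farthest out.

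The response was older than 96 h for most leading genes. The responses at 12, 24 and 48 h use the same 0 min libraries, and are given side by side. Called genes numbered 150 (0.854%; 0.501% higher, 0.353% lower) at 12 h, 1134 (6.46%; 3.19% higher, 3.27% lower) at 24 h, 849 (4.83%; 2.31% higher, 2.53% lower) at 48 h and 940 (5.35%) at 96 h. Of the 11 leading risers other than Firre 8 were called at 12 h, 11 at 24 h and 10 at 48 h, whereas of the 12 lowest genes 0 were called at 12 h and 7 each at 24 and 48 h. The response of Shf was 2.02 at 12 h, 1.96 at 24 h, 2.25 at 48 h and 2.58 at 96 h, and that of Rapgef4 was 3.05, 3.23, 3.07 and 3.57 at these times. Tfap2a stood at 0.74 at 12 h, where it was not called, 0.99 at 24 h, 1.25 at 48 h and 1.57 at 96 h. Cemip stood at -0.30 at 12 h, where it was not called, -1.06 at 24 h, -0.95 at 48 h and -1.18 at 96 h.

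A direct test of 96 h against 48 h, which needs no 0 min library, called 76 genes (0.433%), 38 in each direction (0.216% each), and none of the 24 leading genes. Higher at 96 h were Lrrc15, a leucine-rich repeat membrane gene (0.85 ± 0.13), the ubiquitin ligase genes Rnf157 (0.69 ± 0.17) and Trim62 (0.61 ± 0.14), the lactate exporter gene Slc16a3 (0.60 ± 0.13) and Dppa3 (0.59 ± 0.13). Lrrc15 showed a response of 1.01 ± 0.14 at 96 h and 0.16 at 48 h. Lower at 96 h were Wnt7b (-1.2 ± 0.30), H19 (-0.97 ± 0.17), Plaur, the urokinase receptor (-0.90 ± 0.14), AU015836 (-0.78 ± 0.17) and the myosin light chain gene Myl9 (-0.67 ± 0.13), with edgeR adjusted p values of these 10 up to 0.0411. Plaur responded by 0.64 at 48 h and was not called at 96 h (-0.26), and H19 by 1.81 at 48 h and 0.84 at 96 h. Without replicate 1, 2 or 3 this test called 35, 17 and 12 genes.

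The same transgene response in the WT background, where Firre is already present, shares no library with the rescue. It called 1446 genes (8.23%) at 96 h, 577 higher (3.28%) and 869 lower (4.95%), and 347 genes were called in both. These were 36.9% of the rescue calls and 24% of the WT calls, and 336 of them had the same direction, 187 higher and 149 lower. Firre stood at 63.6, 69.6 and 62.8 TPM in the WT transgene line at 96 h and already at 45.8, 45.8 and 46.8 TPM at 0 min. The WT control averaged 22.1 TPM at 96 h and 24.2 TPM at 0 min. By counts the Firre response in the WT background was smaller than these TPM give, with means of 85.1 CPM at 96 h and 73.4 CPM at 0 min in the WT transgene line and 61.1 and 59.2 CPM in the WT control. On the log2 scale this fitted response was 0.17 and did not pass (0.071, edgeR adjusted p). The cause of this gap between the scales was not tested. Of the 11 leading risers other than Firre 10 were called higher in the WT background too, with Rapgef4 at 5.71, Duox1 at 4.90, Shf at 2.57, Apod at 2.49 and Cdh3 at 1.48. Shf reached 48.7, 46.6 and 46.7 TPM in the WT transgene line at 96 h, against 9.77, 10.3 and 8.27 TPM at 0 min, a level that overlaps with the rescued line. Bcl2l15 was not called there (0.56). Of the 12 lowest genes 6 were called lower in the WT background, among them Trpm1 (-1.0) and Birc7 (-1.15).

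Whether a response differed between the backgrounds was tested directly, and 196 genes (1.12%) passed, 117 (0.666%) with a higher and 79 (0.450%) with a lower value in the rescue. Of these, 85 were called in the rescue itself. Adgrg1 responded less in the rescue, by 2.41 against 3.78, a difference of -1.37 ± 0.31 (edgeR adjusted p = 0.0107). Cemip differed by -0.96 ± 0.21 (edgeR adjusted p = 0.00458) and Ahnak2 by -0.81 ± 0.20 (0.0217), both at about -0.2 in the WT background. The germline genes Dazl, Hormad1 and Rhox5 differed the other way, with Dazl at 0.73 in the rescue and -0.03 in WT cells (2.01e-07, edgeR adjusted p of the difference), Hormad1 at 0.37 and -0.47 (0.00145) and Rhox5 at 1.27 and 0.60 (0.00382). Peg3 differed by 0.30 ± 0.06 (edgeR adjusted p = 0.00336). For Shf the difference was 0.01 ± 0.16, and for Duox1 and Rapgef4 it was -1.70 ± 0.56 and -2.14 ± 0.65, without passing the test (edgeR adjusted p = 0.131 and 0.0832). Without replicate 1, 2 or 3 the test called 174, 14 and 30 genes.

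**Figure D5:**
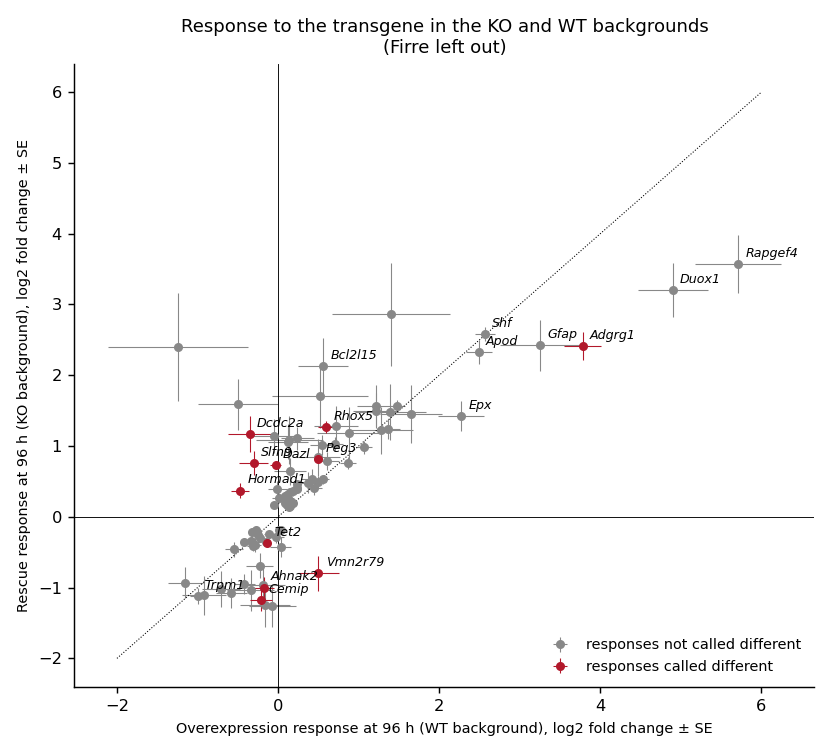
Response at 96 h in the KO background (vertical) against the response in the WT background (horizontal), log2 fold changes ± SE, for the 93 named genes called in the rescue other than Firre; the dotted line marks equal responses. Shf and Apod lie on the line, Adgrg1 (red) lies below it, and Dazl and Hormad1 (red) lie above it.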

How the data were processed

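Poly(A) RNA was sequenced from libraries made with a TruSeq v2 kit, which does not mark strand. Per the submitters' processing notes the authors used Salmon 1.5.2 and mm10. The deposited tables hold expected counts (estimated counts per gene) and TPM for 40914 genes in 156 libraries, and 0 columns of per-sample values were left unmapped. Expected counts were rounded. The 60 libraries of the long course were fitted together in edgeR 4.0.16 (R 4.3.3, limma 3.58.1) with 1 coefficient per line and time, filterByExpr (minimum count 10, minimum total 15), TMM and the robust quasi-likelihood test. P-values were adjusted by Benjamini-Hochberg over 17565 genes, with a threshold of 0.05, and SE is the fitted log2 fold change divided by the square root of F. The 12 libraries held 29824797 to 42651558 counts. On simulated data for this contrast (17565 genes, 50 changed at each size) the test called 84% and 96% of genes changed by -1 and 1. It called 78% and 84% of those changed by -0.58 and 0.58, and 10 of 17365 unchanged genes. The simulated counts followed the fitted trend of spread with level, without further differences in spread between genes. Apart from the changed genes, all with a mean CPM of at least 1, every group had the same means. These rates therefore need not hold for the real libraries.

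The contrast and the gene lists were chosen with earlier results of these data known. Named genes are Firre, the 12 called genes that lead in each direction by log2 fold change (mean CPM of at least 1, no provisional symbol), at most 3 called members of each list by smallest adjusted p, the 5 genes each way that lead the 96 h against 48 h test and the test between backgrounds, and called genes of at least 1 in size (log2) within 500 kb of another. Other called list members were named after their values were seen. Positions came from GENCODE M21 for 40140 of the gene identifiers, and promoters from RefSeq on GRCm38.p6. Repeat copies were found with the 150-base window of copy 5 as the query, allowing edits in 20% of it. DESeq2 1.42.0, other size factors, no filter on low counts, a replicate block, only the lines compared, a fold threshold and leaving out libraries or replicate numbers were tried as alternatives.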

Additional observations from a re-analysis of the deposited data

Results flagged for a closer look

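The response at 96 h differed between the KO and the WT background by the edgeR test of the difference for 16 named genes, with adjusted p values up to 0.0463. Of these, the 5 that lead each way were named by this same test, so their passing adds nothing to it. The test called 196 genes, and 174, 14 and 30 without replicate 1, 2 or 3. Values are rescue minus the WT response on the log2 scale. Firre differed by 4.74 ± 0.41 (SE), at 4.91 in the rescue and 0.17 in the WT background. At 0 min it averaged 0.895 TPM in the KO transgene line and 46.1 TPM in the WT transgene line, so this difference was built into the design. Higher in the rescue were also Dcdc2a by 1.52 (1.17 against -0.35), Zfy1 by 1.22 (0.37 against -0.85), Pramel7 by 1.19 (0.00 against -1.19), Slfn9 by 1.06 (0.76 against -0.30), Hormad1 by 0.85 (0.37 against -0.47), Dazl by 0.76 (0.73 against -0.03), Rhox5 by 0.67 (1.27 against 0.60) and Peg3 by 0.30 (0.81 against 0.50). Lower in the rescue were Adgrg1 by -1.37 (2.41 against 3.78), Vmn2r79 by -1.30 (-0.80 against 0.50), Sh2d3c by -1.08 (-0.58 against 0.50), Megf6 by -1.03 (-0.10 against 0.93), Cemip by -0.96 (-1.18 against -0.21), Ahnak2 by -0.81 (-1.0 against -0.18) and Tet2 by -0.23 (-0.37 against -0.14). The rescue itself was not called for Zfy1, Pramel7, Sh2d3c and Megf6, and that of Vmn2r79 lost its call without any 1 of 10 libraries. Zfy1 is Y-linked, and at 0 min the KO transgene line differed from the KO control by 0.95 for it (edgeR adjusted p = 1.79e-05). For Pramel7 this 0 min difference was -0.74 (edgeR adjusted p = 5.52e-07). Dcdc2a had 0.503, 0.988 and 0.785 TPM in the KO transgene line at 96 h and 0.480, 0.596 and 1.16 TPM at 0 min, groups that overlap.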

How the results depend on the processing

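The response at 96 h called 940 genes, and 942 with size factors by relative log expression, 920 without the filter on low counts (31446 genes tested), 849 in a fit of only the lines compared and 913 with DESeq2, of which 862 were shared with the 940. A fold threshold of 0.58 left 206. Leaving out a replicate number left 449 to 522 calls, with fewer samples in every group, and leaving out 1 library 742 to 872. Of the 94 named genes called, 64 kept the call without any 1 library, 42 without any replicate number and 94 with the replicate block, and none reversed. The share of higher calls ran from 47.3% to 57.9%, beside 51.4%. The line difference at 96 h gave 2663 calls among 17565 genes with all libraries, and 1408 to 1782 without a replicate number. Leaving out a replicate number gave 248 to 319 calls for the line difference at 0 min. For the responses at 12, 24 and 48 h it gave 41 to 75, 440 to 679 and 335 to 501. The test of 96 h against 48 h then gave 12 to 35, and the WT response 400 to 1530. The difference between backgrounds gave 14 to 174, and the gene lists 46 to 53, beside 73. The test of 96 h against 48 h gave 177 calls without the filter on low counts and 120 with the replicate block. Deviations of same-numbered libraries correlated weakly, at -0.05 to 0.077 over 18 pairs of libraries (median 0.03). Libraries of different numbers correlated at -0.087 to 0.055 over 36 pairs (median -0.013). These values do not settle whether replicate numbers pair the samples, and the main fit had no replicate block. The replicate block gave 1026 calls for the response at 96 h. As a difference of log2(TPM + 1) means the Firre response was 4.23. Among genes not called in the rescue, leaving out libraries turned signs, with Wnt7b between -0.00 and 0.31, AU015836 between -0.04 and 0.15, Pramel7 down to -0.12 and Megf6 between -0.19 and 0.02. The causes were not tested. Depth limits the genes near 0.1 TPM, such as Xlr5c and Gm49767.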

Other observations

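Of 558 X-linked genes tested, 53 (9.50%) responded at 96 h, 39 higher and 14 lower, beside 5.35% of all genes. The 53 and the 39 include Firre itself, which was induced from the transgene. Beyond the genes described above, Rhox9 (0.90 ± 0.22) of the reproductive homeobox cluster, Nrk (0.86 ± 0.21), a kinase of the placenta, and Xk (0.84 ± 0.16), which carries a blood group antigen, were higher, with edgeR adjusted p values of 0.00442, 0.00355 and 0.0001. Rhox9 rose by 1.62 in the transgene line and 0.72 in the control, and Nrk by 1.63 and 0.77. These genes were picked after their values were seen. In the WT background 71 X-linked genes (12.7%) responded, beside 8.23% of all genes.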
